A study of Mus musculus with 5 samples.

Results

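Peroxisome proliferator-activated receptor gamma coactivator 1 (PGC-1) proteins and the estrogen-related receptors (ERRs) were examined as 6 genes of the 32285 in single-nuclei RNA sequencing of mouse interscapular brown adipose tissue (iBAT). The members were taken by symbol: the coactivators Ppargc1a, Ppargc1b and Pprc1 and the receptors Esrra, Esrrb and Esrrg, and all 6 had unique molecular identifiers (UMIs, counts of single captured RNA molecules) in both matrices. The first matrix holds a littermate control (WT) and a Ucp1-STX4KO sample, both 3 months old, and the aging matrix holds C57BL/6J samples labelled 2, 12 and 24 months. In Ucp1-STX4KO mice, floxed Stx4a (syntaxin 4) was deleted with Cre under the Ucp1 promoter, so the deletion was directed to Ucp1-expressing adipocytes, and other cells of the tissue keep the gene. Each label stands for 1 library, the methods give tissue of 4 male mice, and the homogenization was set up to enrich brown adipocyte nuclei before a sort.

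Cell barcodes carry a suffix that separates the libraries, 1 and 2 in the first matrix and 1 to 3 in the aging matrix, but no label ties a suffix to a genotype or an age. Values are therefore given by suffix, no genotype or age is compared, and with 1 library each no difference has a replicate check. Intervals are 95% and cover counting error only. The targeted gene Stx4a stood in adipocyte-like nuclei at 60.0 and 49.9 counts per 1000000 UMIs (CPM) in suffixes 1 and 2 of the first matrix, and the aging libraries had 47.7, 67.1 and 68.2 CPM.

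The first matrix held 20307 nuclei (median 5998 UMIs in suffix 1 and 3285 in suffix 2) and the aging matrix 27842 nuclei above the lower quality limits, with library medians of 891 to 1720 UMIs over all barcodes. Any 2 libraries shared 23 to 45 barcode sequences. A gate on marker genes named 17179 nuclei (first matrix) and 18105 nuclei (aging matrix), of which 14617 and 2079 were adipocyte-like. The label of brown adipocytes thus described most named nuclei of the first matrix, whereas 11715 of the 18105 named nuclei of the aging matrix were endothelial-like. Skeletal muscle-like nuclei numbered 8 in suffix 1 and 324 in suffix 2 of the first matrix and none in the aging matrix.

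PGC-1 proteins do not bind DNA themselves: they dock on nuclear receptors and other factors and recruit the machinery that opens chromatin and starts transcription. The ERRs are orphan nuclear receptors that bind DNA without a known natural ligand and switch on genes of the mitochondrial respiratory chain and of fatty acid oxidation when a PGC-1 protein is bound. In brown fat, Ppargc1a is induced by cold and adrenergic signalling through cyclic AMP, and it serves thermogenesis and mitochondrial biogenesis together with Ppargc1b, while Pprc1 is a ubiquitous relative tied to cell growth.

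On GRCm38, Ppargc1a lies at chr5:51454250-51567726 on the minus strand. Pprc1 lies at chr19:46044886-46072915 on the plus strand and overlaps Ldb1 on the other strand, and Esrra at chr19:6910977-6921813 on the minus strand, where it overlaps Trmt112 on the other strand. Esrrb spans chr12:86361117-86521628 and Esrrg chr1:187608791-188214885, both on the plus strand, and Esrrg overlaps Gm36388 and 9330162B11Rik on the other strand. Whether intronic reads were counted is not stated in the sources used here, so the length that sets a gene's UMIs is not known.

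The 250 bases before the annotated start are shown for Ppargc1a (GRCm38.p6 chr5:51567726-51567975, minus strand), because this gene differed most between libraries below, and for Esrra (chr19:6921809-6922058, minus strand), because its level stayed between 134 and 220 CPM in all 5 libraries. Both sequences are from RefSeq and run 5′ to 3′, and capitals mark ACGTCA, the other-strand form of TGACGT, the shorter form of the cyclic AMP response element TGACGTCA.
Ppargc1a: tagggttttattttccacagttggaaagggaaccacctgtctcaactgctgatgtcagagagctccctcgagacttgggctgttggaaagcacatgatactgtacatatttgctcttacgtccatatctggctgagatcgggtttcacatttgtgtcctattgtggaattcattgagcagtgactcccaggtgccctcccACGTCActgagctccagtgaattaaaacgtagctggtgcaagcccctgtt
Esrra: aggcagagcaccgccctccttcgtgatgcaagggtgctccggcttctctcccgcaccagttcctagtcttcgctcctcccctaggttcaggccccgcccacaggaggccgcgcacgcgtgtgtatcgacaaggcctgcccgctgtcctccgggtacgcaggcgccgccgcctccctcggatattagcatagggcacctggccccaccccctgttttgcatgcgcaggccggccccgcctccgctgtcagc
The ACGTCA match begins 50 bases before the Ppargc1a start. On either strand, TGACGT is present in 6.47% of 32851 promoters of this length and the full TGACGTCA, which contains it, in 1.55%. Searches for TGACGTCA, for the ERR response element TCAAGGTCA (0.387% of promoters), for its core AAGGTCA (4.08%), which the longer element contains, and for the palindromic NRF1 site (0.782%) found no match in the windows of Ppargc1a, Pprc1 (1 window), Esrra (1), Esrrb (2) or Esrrg (4). A match describes letters only.

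Ppargc1a was far higher in one library than in the other four. In adipocyte-like nuclei it stood at 779 CPM (interval 772 to 786) in suffix 1 and 11893 CPM (11852 to 11934) in suffix 2 of the first matrix, and at 383, 529 and 486 CPM in suffixes 1, 2 and 3 of the aging matrix. Suffix 2 of the first matrix thus lay above every other library, and no counting interval came near it. Its ratio to suffix 1 was 15.3 (15.1 to 15.4), while the median over all genes was 0.773. Of 14916 genes with enough UMIs, 395 (2.65%) were at least 10-fold higher in suffix 2, and Ppargc1a ranked 235th among all. Of those 395 genes, 82 had over 1000 UMIs. Ppargc1a was the 3rd most abundant gene in adipocyte-like nuclei of suffix 2, with 1.19% of all their UMIs, and the 138th in suffix 1, with 0.0779%. Markers of other cell types moved between these libraries too: in adipocyte-like nuclei the summed skeletal muscle markers stood at 7.77 and 182 CPM in suffixes 1 and 2, the fibroblast markers at 22.1 and 55.1 CPM, the macrophage markers at 6.47 and 31.5 CPM and the endothelial markers at 14.8 and 34.5 CPM, with all markers of these lists detected. In the aging libraries the endothelial markers stood at 1071, 1644 and 1948 CPM and the fibroblast markers at 167, 185 and 127 CPM. There the macrophage markers stood at 15.8, 33.3 and 29.1 CPM and the skeletal muscle markers at 13.4, 18.3 and 35.8 CPM. The part of all these markers in the Ppargc1a difference and in the levels of the other members was not tested.

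The other coactivators and the receptors did not share that difference. Ppargc1b, which shares partners and mitochondrial targets with Ppargc1a, lies at chr18:61298136-61400431 on the minus strand. It stood at 2960 and 2140 CPM in suffixes 1 and 2 of the first matrix, and at 2275, 2290 and 2722 CPM in the aging libraries. Its ratio of suffix 2 to 1 was 0.723 (0.716 to 0.729), close to the median gene. Ppargc1a UMIs per Ppargc1b UMI were accordingly 0.263 and 5.56 (first matrix) and 0.168, 0.231 and 0.179 (aging matrix), so Ppargc1b outnumbered Ppargc1a in every library but one. Pprc1 stood at 19.0 and 34.3 CPM and at 17.0, 23.9 and 25.7 CPM, and its ratio of suffix 2 to 1 was 1.81 (1.66 to 1.96). None of the other 5 members reached a 2-fold difference in either direction between these suffixes, where 11.9% of genes were at least 2-fold higher in suffix 2 and 24% were at or under 0.5-fold.

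Among the receptors, Esrrg had the most UMIs, with 1862 and 1245 CPM in the first matrix, and 2008, 1859 and 1053 CPM in the aging libraries. Suffix 3 of the aging matrix was the lowest of the 5 libraries, with a ratio to suffix 1 of the same matrix of 0.525 (0.489 to 0.562), just outside the 0.5-fold limit that 6.82% of genes met. Its adipocyte-like nuclei also had the highest summed endothelial markers of the 5 libraries, at 1948 CPM, and their part was not tested. Esrra, the receptor most closely tied to PGC-1 in mitochondrial gene control, stood at 220 and 134 CPM and at 149, 158 and 136 CPM. Esrrb, known mainly from pluripotent cells and the inner ear, was near the detection limit at 5.36 and 4.25 CPM and at 1.58, 8.44 and 14.5 CPM. Its ratios within the aging matrix (5.35 and 9.21 for suffixes 2 and 3 over suffix 1) rest on 4, 18 and 13 UMIs. No other member reached 2-fold or 0.5-fold between libraries of the aging matrix. The shares of all genes at or above 2-fold were 6.34% for suffix 2 over 1, 3.95% for 3 over 1 and 2.97% for 3 over 2, and those at or under 0.5-fold were 6.9%, 6.82% and 4.13%.

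**Figure D1:**
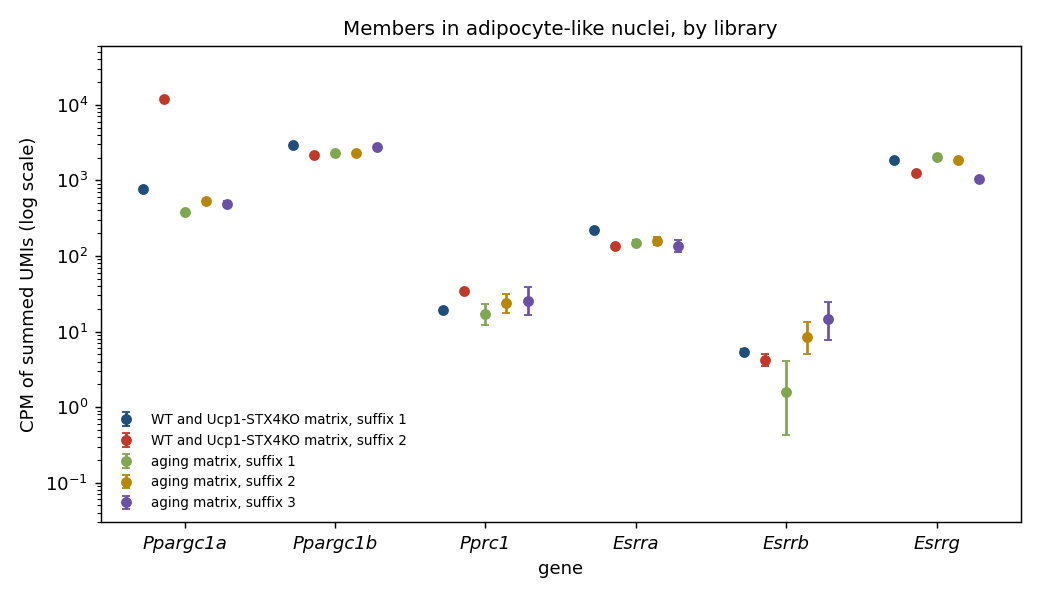
CPM of summed UMIs (log axis) of the 6 members in adipocyte-like nuclei of the 5 libraries, 1 point per library with its 95% Poisson interval, which is often narrower than the point. Ppargc1a in suffix 2 of the first matrix (11893 CPM) sits far above the other libraries (383 to 779 CPM), whereas Ppargc1b lies between 2140 and 2960 CPM in all 5.

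Different genes are set side by side per length, on both gene body and exon length, although UMIs of a 3′ library need not scale with either. Per kilobase of gene body, Ppargc1b led in suffix 1 of the first matrix with 28.9 CPM per kb, followed by Esrra with 20.3, Ppargc1a with 6.86, Esrrg with 3.07 and Pprc1 with 0.677. In suffix 2 Ppargc1a led with 105 CPM per kb, followed by Ppargc1b with 20.9, Esrra with 12.3 and Esrrg with 2.05. Per kilobase of exon the levels in suffix 2 were 1804 CPM per kb for Ppargc1a, 536 for Ppargc1b, 200.5 for Esrrg and 30.5 for Esrra. The order of Esrra and Esrrg thus depended on which length was used, and the lead of Ppargc1a in suffix 2 did not.

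The Ppargc1a difference lay across most nuclei of the library. The median adipocyte-like nucleus had 633 CPM of Ppargc1a in suffix 1 and 6967 CPM in suffix 2, and the highest count in 1 nucleus was 91 UMIs against 1039. Of the suffix 2 nuclei, 77.3% lay above the 95th percentile of suffix 1 (2130 CPM). The highest suffix 1 nucleus, with 6655 CPM, lay below the suffix 2 median. The other named nuclei of suffix 2 together stood at 2380 CPM, also above that percentile. The part of RNA carried over from lysed adipocytes in the 77.3% was not tested. The spread was also wider in suffix 2, from 675 CPM at the 5th percentile to 32473 CPM at the 95th.

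**Figure D2:**
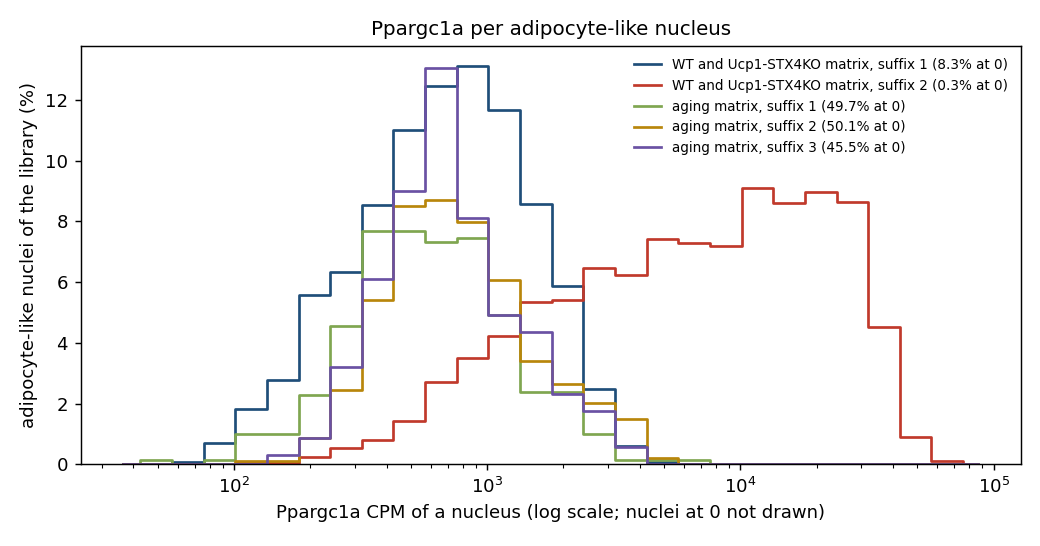
Share of adipocyte-like nuclei of each library (percent) against Ppargc1a CPM of a nucleus (log axis), with the share at 0 in the legend. Suffix 2 of the first matrix spreads from 675 CPM at the 5th percentile to 32473 CPM at the 95th, with a median of 6967 CPM against 633 CPM in suffix 1.

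Shares of nuclei with at least 1 UMI were compared after each nucleus was thinned to 500 UMIs. Ppargc1a was then detected in 30.8% (29.9 to 31.7) of adipocyte-like nuclei of suffix 1 and in 84.6% (83.5 to 85.6) of suffix 2, against 91.7% and 99.7% without thinning. In endothelial-like nuclei, which have median depths of 2538 and 1396 UMIs against 6195 and 5112 in adipocyte-like nuclei, the thinned shares were 13.3% and 81.0% (42.7% and 99.1% without thinning). In suffix 2 the counting intervals of both classes overlapped, so that share does not set adipocyte-like nuclei apart. Ppargc1b was detected in 75.8% and 52.6% of adipocyte-like nuclei against 25.3% and 15.3% of endothelial-like nuclei. For Esrrg these shares were 56.2% and 37.1% against 22.7% and 8.87%. In the aging matrix the thinned shares in adipocyte-like nuclei were 17.3% to 19.6% for Ppargc1a and 60.4% to 69.7% for Ppargc1b, against 0.545% to 1.57% and 0.636% to 4.30% in endothelial-like nuclei. In these libraries the median depth was 1999 to 2540 UMIs in adipocyte-like and 725 to 1721 UMIs in endothelial-like nuclei.

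The next comparison asked how far the 6 genes mark adipocyte-like nuclei. In the aging matrix 5 of the 6 were at least 2-fold higher in adipocyte-like than in all other named nuclei, where 19.4% of all genes were. Esrrg led with 52.2-fold (1797 against 34.4 CPM), followed by Ppargc1b with 36.4-fold, Ppargc1a with 21.9-fold, Esrra with 9.06-fold and Esrrb with 3.15-fold on 35 and 64 UMIs. Pprc1, at 0.966-fold, was level between the classes. In each suffix alone Esrrg was between 28.1-fold and 106-fold, Ppargc1b between 24.2-fold and 55.9-fold and Ppargc1a between 17.8-fold and 32.7-fold, where 18.2%, 15.6% and 21.5% of genes reached 2-fold in suffixes 1, 2 and 3 and 24.8%, 20.6% and 23.3% were at or under 0.5-fold (23.7% over all suffixes).

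In the first matrix the same ratios were smaller, but the other named nuclei of the 2 matrices differed in make-up and in adipocyte RNA. Adipocyte markers stood at 5067 CPM in endothelial-like nuclei of the first matrix and 1846 CPM in those of the aging matrix. In fibroblast-like nuclei they stood at 2411 and 572 CPM. The part of these differences in the smaller ratios was not tested. In the first matrix 4 of the 6 members passed 2-fold, against 16.4% of all genes. Ppargc1b was 7.58-fold higher in adipocyte-like nuclei, Esrra 2.92-fold, Esrrg 2.81-fold and Ppargc1a 2.27-fold. The pooled Ppargc1a value mixed libraries of very different level and was 1.43-fold with graph clusters and 1.90-fold with nuclei thinned to 500 UMIs, and within the libraries it was 4.73-fold (779 against 165 CPM) in suffix 1 and 5.00-fold (11893 against 2380 CPM) in suffix 2. In suffix 1 17% of genes reached 2-fold and 21.1% were at or under 0.5-fold, and in suffix 2 10.7% and 28.8%. Esrrg was 5.38-fold higher in suffix 1 but 1.76-fold in suffix 2, where the other named nuclei include the skeletal muscle-like ones. Pprc1 was at 0.588-fold. Esrrb was at 0.271-fold, below the 0.5-fold limit that 25.5% of genes met. That value came from suffix 2 (0.164-fold, 149 UMIs in other named nuclei), since suffix 1 had 3 UMIs of Esrrb in its other named nuclei.

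RNA released by lysed adipocytes is captured with every nucleus, so levels outside adipocytes were read against a panel of 6 adipocyte genes that the gate did not use: the uncoupling protein Ucp1, the lipid droplet proteins Cidea, Cidec, Plin1 and Plin5, and the adipokine Adipoq. Each member's CPM in a class was divided by the CPM it would have if only carried-over adipocyte RNA were present, taken at the panel's level in each suffix. Of 30 pairs of member and class with at least 10 measured or predicted UMIs in the first matrix, 10 were at least 2-fold above that level, and of 24 pairs in the aging matrix 9 were. Over all genes, 89.2% and 97.6% of such pairs were. The called pairs of members were 5 of Pprc1, 2 of Esrra and 1 each of Ppargc1a, Esrrb and Esrrg in the first matrix, and 4 of Pprc1, 4 of Esrra and 1 of Esrrb in the aging matrix.

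In the first matrix, Ppargc1a in classes other than adipocytes and muscle was near the carried-over level predicted from the panel. Macrophage-like, endothelial-like, pericyte or smooth muscle-like, fibroblast-like and T lymphocyte-like nuclei had 0.822 to 0.955 of the predicted level, within the range of the panel genes themselves (0.644 to 1.73 over these classes). Ppargc1b had 0.475 to 0.737 and Esrrg 0.581 to 0.768 of it. The panel thus predicted more than was measured for both genes, and whether it does so for Ppargc1a was not tested. The measured Ppargc1a level in these classes was nevertheless 1616 to 3186 CPM in suffix 2, above the 779 CPM of suffix 1 adipocyte-like nuclei, and 133 to 193 CPM in the 4 of these classes described in suffix 1. A level of Ppargc1a in 1 class can therefore not be set against another library without its carried-over RNA.

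Skeletal muscle-like nuclei, found in suffix 2 of the first matrix, had the receptors far above carried-over RNA. They had Esrrg at 2070 CPM, 12.7 times (12.2 to 13.1) the carried-over level, and Esrra at 96.0 CPM, 5.44 times (4.63 to 6.36). Esrrb stood at 91.8 CPM on 151 UMIs, against 5.05 CPM in adipocyte-like nuclei, and was thus higher in muscle-like nuclei than in any other class. Of the 152 Esrrb UMIs in the other named nuclei, the remaining 1 came from a pericyte or smooth muscle-like nucleus. Nuclei that the gate left unnamed were not counted. Ppargc1a and Ppargc1b were at 2.13 and 1.90 times the carried-over level, and the highest panel gene was at 2.09. In suffix 2 alone, which holds 324 of the 332 nuclei, they were at 2.13 and 1.97 times, above the highest panel gene (1.40). With Ucp1 alone as the panel Ppargc1a was at 1.56 times. Esrrg in muscle-like nuclei of suffix 2 (2096 CPM) was above that in adipocyte-like nuclei of the same suffix (1245 CPM).

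Pprc1 and Esrra departed from the adipocyte pattern in other classes. Pprc1 was 4.81 to 10.5 times the carried-over level in the 5 classes of the first matrix with at least 10 UMIs, the highest being fibroblast-like nuclei (52.0 CPM on 155 UMIs), and 12.1 to 44.5 times in 4 classes of the aging matrix. Such values were common: of all genes, 91.7% were at least 2-fold above in macrophage-like, 81.2% in endothelial-like, 88.1% in pericyte or smooth muscle-like, 92.9% in fibroblast-like, 93.9% in skeletal muscle-like and 82.7% in T lymphocyte-like nuclei. In the aging matrix these shares were 98%, 94.9%, 98.8%, 99.2% and 98.8% in macrophage-like, endothelial-like, pericyte or smooth muscle-like, fibroblast-like and Schwann-like nuclei. Esrra was 2.89 times (2.36 to 3.50) the carried-over level in macrophage-like nuclei, with 4.00 in suffix 2, 1.38 in suffix 1 and 1.99 with Ucp1 alone as the panel, and stood between 0.755 and 1.65 in the endothelial-like, T lymphocyte-like, fibroblast-like and pericyte or smooth muscle-like nuclei. In the aging matrix Esrra was again above 2-fold in macrophage-like nuclei, at 5.07 times on 14 UMIs. It was 4.82 times in pericyte or smooth muscle-like nuclei (162 UMIs), 3.76 times in fibroblast-like and 2.46 times in Schwann-like nuclei, and 1.23 times in endothelial-like nuclei. Esrrb in endothelial-like nuclei of the aging matrix was at 2.93 times (2.18 to 3.85) on 51 UMIs.

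In pericyte or smooth muscle-like nuclei of the aging matrix, Ppargc1b (114 CPM on 810 UMIs) was 1.53 times (1.43 to 1.64) the carried-over level, above the panel genes' highest value of 1.29. The value was 4.01 in suffix 1, where the summed panel stood at 39.7 CPM in these nuclei, 0.788 in suffix 2 and 1.67 in suffix 3, with highest panel genes at 1.75, 1.51 and 1.51. Ppargc1a in the same nuclei was at 30.2, 26.5 and 19.3 CPM, or 7.63, 0.550 and 1.62 times the carried-over level in suffixes 1, 2 and 3. No direction held over these libraries. Esrrg stayed below the carried-over level there (0.424).

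**Figure D3:**
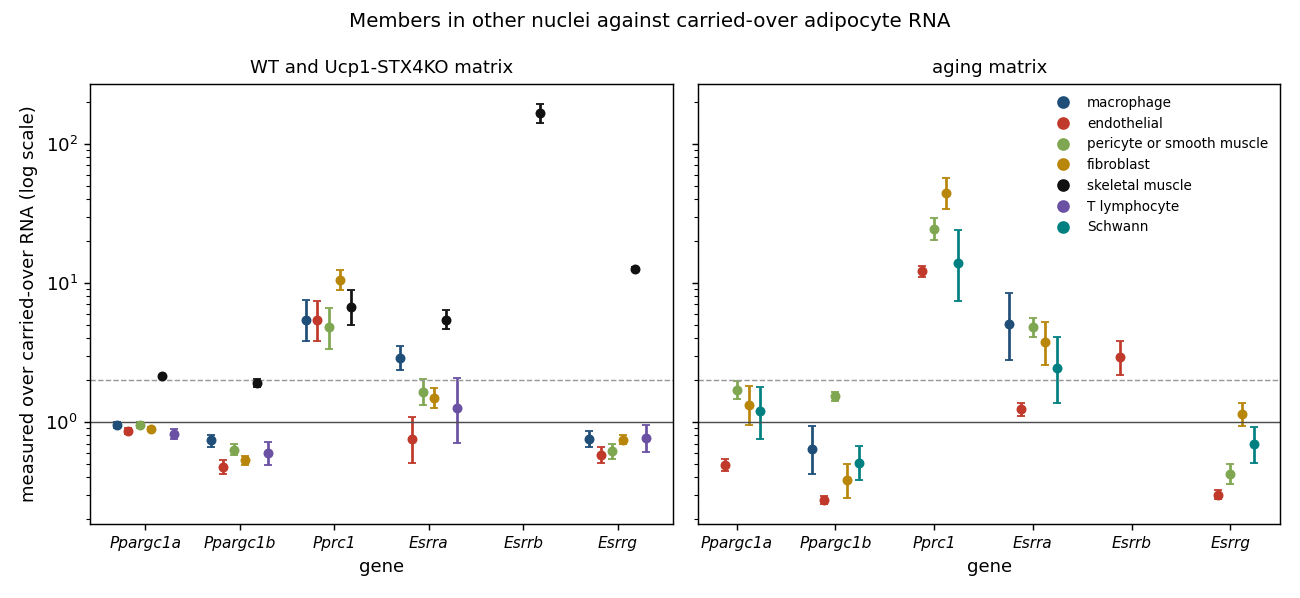
Measured level of each member in a class over the level carried-over adipocyte RNA would give (log axis), 1 point per class with at least 10 UMIs, bars being 95% Poisson intervals, for both matrices. The solid line marks 1 and the dashed line 2. Skeletal muscle-like nuclei stand highest for Esrrb (166) and Esrrg (12.7), Pprc1 lies above 2 in every class drawn, and Ppargc1a lies between 0.822 and 0.955 in the other classes of the first matrix.

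Within adipocyte-like nuclei, the members varied together most in one library. Across the 4558 nuclei of suffix 2 of the first matrix, the correlation of residuals, which removes nucleus depth, was 0.567 for Ppargc1a with Ppargc1b, 0.516 for Ppargc1b with Esrrg and 0.419 for Ppargc1a with Esrrg. Across the 10059 nuclei of suffix 1 these values were 0.099, 0.067 and 0.074. The suffixes of the aging matrix lay between, at 0.187, 0.150 and 0.132 for Ppargc1a with Ppargc1b and 0.289, 0.272 and 0.096 for Ppargc1b with Esrrg. Esrra, with fewer UMIs, reached 0.286 with Ppargc1b and 0.208 with Ppargc1a in suffix 2, and 0.027 and 0.010 in suffix 1. Pprc1 had at most 0.026 with every other member in both suffixes of the first matrix. These are descriptions over nuclei that share a library, its depth and its carried-over RNA.

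**Figure D4:**
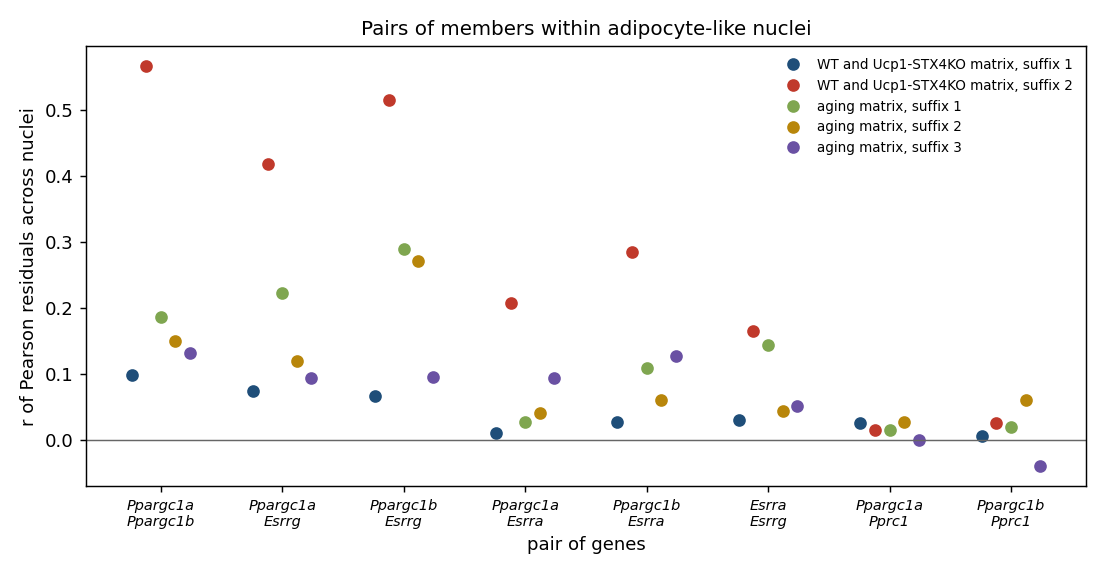
Correlation (r) of Pearson residuals across adipocyte-like nuclei for 8 pairs of members, 1 point per library. Suffix 2 of the first matrix is highest for each of the first 6 pairs, with 0.567 for Ppargc1a with Ppargc1b, and both pairs with Pprc1 are at most 0.061 in all libraries.

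The genes most like each member were ranked by the lower of its correlations in suffixes 1 and 2 of the first matrix, over 6020 genes. For Ppargc1a these were Pparg (0.222), Gnas (0.202), Cntfr (0.168), Adtrp (0.150) and Pde3a (0.142). Pparg is the nuclear receptor that drives adipocyte identity and is itself one of the gate's adipocyte markers, Gnas encodes the stimulatory G protein alpha subunit, and Pde3a degrades cyclic AMP. Ppargc1b was the 24th gene on the list of Ppargc1a, and Ppargc1a the 7th on that of Ppargc1b. For Ppargc1b the list was Slc4a4 (0.152), Gnas (0.146), Ppara (0.142), Sept9 (0.104) and Mtss1 (0.100). Ppara, a receptor for fatty acids that works with PGC-1 coactivators, reached 0.625 with Ppargc1b in suffix 2 alone.

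For Esrrg the list was Prkag2 (0.144), a regulatory subunit of the energy sensor AMP-activated kinase, Slc25a42 (0.138), a mitochondrial carrier of coenzyme A, and then Rgs7 (0.135), Nrp2 (0.128) and Adtrp (0.118). In the aging libraries Prkag2 had 0.249, 0.217 and 0.175 with Esrrg. Rgs7 had 0.265, 0.238 and 0.163 with Esrrg there. Ppara had 0.320, 0.320 and 0.248 with Ppargc1b, and Gnas 0.240, 0.137 and 0.231 with Ppargc1a. Values were lower for some other listed genes: Cntfr had 0.094, 0.003 and 0.007 with Ppargc1a and Mtss1 -0.010, 0.096 and 0.077 with Ppargc1b. Gnas had 0.121, 0.026 and 0.006 with Esrra. Esrra had weaker partners, among them Gnas (0.072), Rsrp1 (0.058), Atxn2 (0.056) and Slc25a42 (0.049). For Pprc1 (Fam117a, Cul5, Utp20, Ankrd52 and Pam) no value exceeded 0.036, and in counts this sparse that is no pattern.

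Adipocyte-like nuclei were next ordered by their share of UMIs on a thermogenic list (Ucp1, Cidea, Dio2 and Elovl3). In 4 groups of equal size, from lowest to highest, of suffix 2 nuclei in the first matrix, Ppargc1a stood at 2198, 7212, 16614 and 20675 CPM, a range of 9.41-fold. The lowest group lay below the 2380 CPM of Ppargc1a in the other named nuclei of suffix 2 together. The part of carried-over RNA in the 9.41-fold range was not tested. In the same groups Ppargc1b stood at 556, 1522, 2964 and 3394 CPM, and Esrrg at 240, 903, 1762 and 2004 CPM. Esrra spanned a smaller range, from 73.3 to 185 CPM. These 4 genes were thus highest in the most thermogenic group, while Pprc1 was level at 32.2, 34.1, 38.7 and 32.1 CPM. Esrrb, near the detection limit, also rose, with 1.71, 3.00, 6.03 and 6.04 CPM on 12, 19, 43 and 44 UMIs. In suffix 1 the top group was close to the bottom one, with 774 against 739 CPM for Ppargc1a, 2984 against 2885 CPM for Ppargc1b and 1744 against 1911 CPM for Esrrg, although its thermogenic list spanned 1075 to 3842 CPM (222 to 4566 CPM in suffix 2). In the aging matrix Ppargc1a was 2.57-fold, 1.49-fold and 1.63-fold higher in the top group in suffixes 1, 2 and 3. The median depth of top and bottom groups was 6212 and 5812 UMIs in suffix 1 and 5507 and 5416 UMIs in suffix 2 of the first matrix. In the aging libraries it was 2537 and 2255, 2166 and 1670, and 2561 and 1966 UMIs, and the part of depth in their ranges was not tested.

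**Figure D5:**
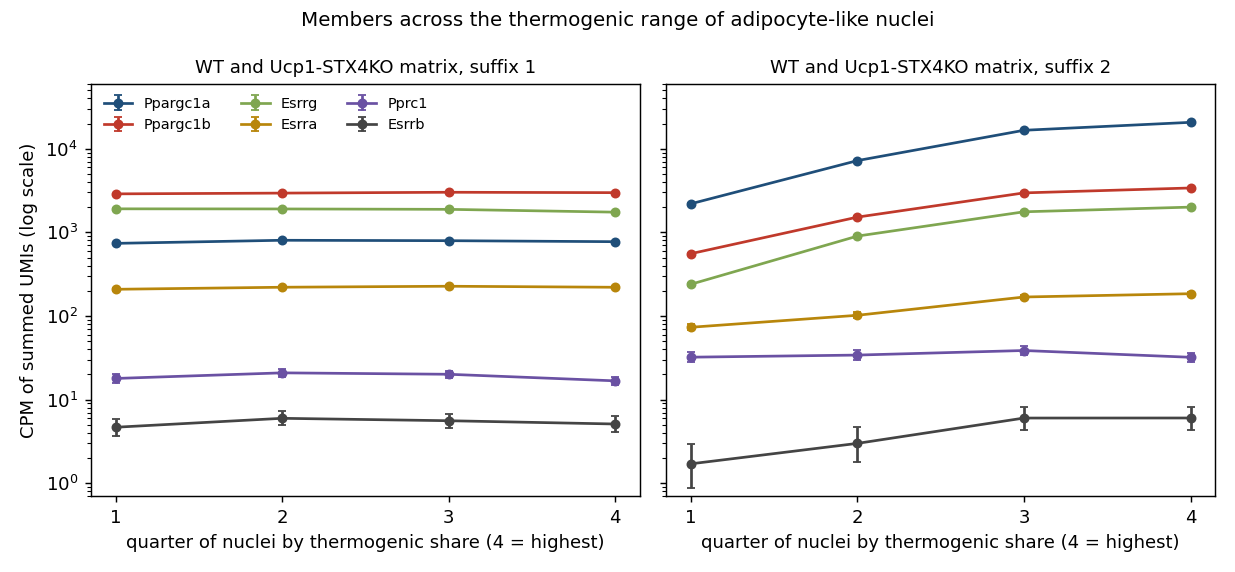
CPM of summed UMIs (log axis) of the members in 4 equal groups of adipocyte-like nuclei, ordered by their share of UMIs on the thermogenic list, for both suffixes of the first matrix, with 95% Poisson intervals. In suffix 1 the lines are nearly flat, and in suffix 2 Ppargc1a runs from 2198 to 20675 CPM and Esrrg from 240 to 2004 CPM, while Pprc1 stays between 32.1 and 38.7 CPM. The other named nuclei of suffix 2 together had 2380 CPM of Ppargc1a, above its lowest group.

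In suffix 2, the nuclei richest in genes of white fat had lower Ppargc1a. UMIs of a white-like list (Aldh1a1, Cyp2e1, Nnat, Retn and Lep) were absent from 74.3% of adipocyte-like nuclei in suffix 1 and from 43.2% in suffix 2. In the richest of 4 equal groups of suffix 2 nuclei by that list, Ppargc1a stood at 2895 CPM against 17343 CPM in a group with none (tied nuclei taken in file order), Ppargc1b at 668 against 3151 CPM, Esrrg at 328 against 1842 CPM and Esrra at 77.8 against 178 CPM, whereas Pprc1 stood at 34.3 against 33.3 CPM. The Ppargc1a level of the richest group lies within the 1616 to 3186 CPM found in the non-adipocyte classes of suffix 2 other than muscle. Across the whole adipocyte-like class of suffix 2, Ppargc1a correlated at 0.589 with Ucp1, 0.359 with Cidea and 0.144 with Plin5, and at -0.328, -0.321 and -0.500 with Adipoq, Plin1 and Cidec. The negative values did not recur for Plin1, which had 0.028 in suffix 1 and 0.038, 0.069 and 0.136 in the aging libraries. Adipoq was weakly negative in each, with -0.018 in suffix 1 and -0.009, -0.029 and -0.107 in the aging libraries. Cidec had -0.071 in suffix 1 and -0.039, 0.045 and 0.087 in the aging libraries.

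Among the 1971 nuclei of suffix 2 and 7478 of suffix 1 without any white-like UMI, a choice made after the values were seen, Ppargc1a stood at 17137 and 793 CPM, a ratio of 21.6. In these nuclei Ppargc1b (3095 and 2990 CPM) and Esrrg (1817 and 1865 CPM) were level between the suffixes, with ratios of 1.04 and 0.974, and Esrra was at 0.803. The thermogenic range of suffix 2 narrowed there, to 2.67-fold for Ppargc1a, 1.82-fold for Ppargc1b and 1.78-fold for Esrrg, and the correlation of Ppargc1a with Ppargc1b was 0.311 in suffix 2 and 0.076 in suffix 1. The groups richest and poorest in the list had median depths of 5276 and 4430 UMIs in suffix 2 and 6776 and 5987 UMIs in suffix 1, and the part of depth was not tested.

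On a lipogenic list (Acly, Fasn, Elovl6 and Acaca), Ppargc1a had opposite directions in the suffixes of the first matrix. The top group had 582 CPM against 989 CPM in the bottom group in suffix 1 (0.588-fold), and 12404 against 7774 CPM in suffix 2. Ppargc1b differed less, at 0.931-fold and 1.26-fold. In the aging matrix the Ppargc1a value was 0.471-fold, 1.26-fold and 0.711-fold in suffixes 1, 2 and 3, so no single direction held over libraries.

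Genes around the PGC-1 and ERR proteins were counted by 5 lists. Fatty acid oxidation, a textbook target of these receptors, had all 13 genes at least 2-fold higher in adipocyte-like nuclei of both matrices, with a median ratio of 3.30 and 5.06 (12 of 13 in each suffix of the first matrix alone), against 0.982 and 1.02 over all genes. The highest in the first matrix were the acylcarnitine carrier Slc25a20 (5.68-fold) and the medium-chain dehydrogenase Acadm (4.29-fold), and the lowest were Etfa (2.76-fold) and Acadvl (2.47-fold). Of 22 respiratory chain and citric acid cycle genes, 11 were at least 2-fold higher in the first matrix (8 in suffix 2 alone) and 19 in the aging matrix (10 in suffix 2 alone), among them Sucla2 (4.16-fold in the first matrix), a subunit of succinyl-CoA synthetase, with Cox7a1 (1.51-fold) and Cox8b (1.61-fold) lowest. No gene of either list was at or under 0.5-fold, where 25.5% and 23.7% of all genes were in the first and aging matrices. Of all genes, 16.4% and 19.4% were at least 2-fold higher in these matrices. In single libraries that share was 17% and 10.7% in suffixes 1 and 2 of the first matrix and 15.6% in suffix 2 of the aging matrix.

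The other lists are read against the shares of all genes called, which were 16.4% at least 2-fold higher and 25.5% at or under 0.5-fold in the first matrix, whereas the aging matrix had 19.4% and 23.7%. Of 12 DNA-binding partners 2 were higher in the first matrix (4 in suffix 1 alone), Ppara (7.47-fold) and Rxrg (2.90-fold), and 4 in the aging matrix, with median ratios of 0.932 and 1.07. The first of these counts is near the share of all genes. The lowest were Ppard (0.603-fold) and Nrf1 (0.640-fold), the factor through which PGC-1 acts on many respiratory genes. Of 10 genes of mitochondrial DNA transcription and replication, 3 were higher in the first matrix (none in suffix 2 alone), among them the helicase Twnk (2.13-fold) and Tfb1m (2.04-fold), with a median of 1.68. Of the same 10 genes 6 were higher in the aging matrix, with 6, 4 and 5 in suffixes 1, 2 and 3, and the median was 2.47, close to that of the respiratory list (2.58). Tfam, which packages and transcribes mitochondrial DNA, was at 1.26-fold and the polymerase Polg at 0.951-fold in the first matrix. Of 26 coregulators and regulators, 4 were higher (7 in suffix 2 alone) and 3 at or under 0.5-fold in the first matrix, whereas the aging matrix had 8 and 2, with median ratios of 1.11 and 1.39. The highest in the first matrix were Prdm16 (4.31-fold), a PGC-1 partner in brown fat identity, and Lpin1 (2.94-fold), and the lowest Ncoa3 (0.342-fold) and Twist1 (0.353-fold).

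Between the suffixes of the first matrix, the target lists did not follow Ppargc1a across all adipocyte-like nuclei. None of the 13 fatty acid oxidation genes and none of the 22 respiratory and citric acid cycle genes was 2-fold higher in suffix 2. Of each list 3 were at or under 0.5-fold, and the median ratios were 0.734 and 0.732 beside 0.773 for all genes. White-like UMIs were absent from 74.3% of these nuclei in suffix 1 and 43.2% in suffix 2, and the lists were not counted in those nuclei alone. There the ratio of suffix 2 to 1 was 1.04 for Ppargc1b, 0.974 for Esrrg and 21.6 for Ppargc1a, against 0.723, 0.669 and 15.3 in all. Of the coregulators, 4 of 26 were at least 2-fold higher in suffix 2 and 2 were at or under 0.5-fold, where 11.9% and 24% of all genes were. The count of higher genes is thus near that of all genes and is no result about the list, and the 6 genes are given as single values, named after these were seen. Zfp516 was 4.63-fold higher (188 against 40.6 CPM), Nrip1 4.24-fold (957 against 226 CPM), Irf4 3.22-fold (152 against 47.2 CPM) and Ncoa1 2.61-fold (1179 against 451 CPM). Irf4 and Zfp516 are transcription factors of the cold-induced thermogenic program, Nrip1 is a corepressor of ERR targets and Ncoa1 a steroid receptor coactivator. Lower were Mapk14 (0.390-fold), the p38 kinase that activates PGC-1 alpha, and the acetyltransferase Kat2a (0.497-fold). The part of genotype in these values cannot be told apart from library, since no label ties either suffix to a genotype.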

How the data were processed

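Single-nuclei libraries of mouse iBAT were analysed from 2 gene by barcode matrices of UMI counts. The deposited counts are whole, unnormalized numbers made by the authors with Cell Ranger 6.1.2 on mm10, and the methods give cells forced to 10000 per library, which holds for the 3 aging libraries, whereas the first matrix has 11201 and 9106 barcodes. Seurat 4.1.0 served the authors for steps that are not in these files. Depth per library was 14486189 to 76195924 UMIs. The stated lower limits (200 UMIs, 100 genes) were applied. The stated upper limits (2000 UMIs, 3000 genes) would leave 2763 nuclei of the first matrix, none of suffix 1, and were used as an alternative. Doublets were kept, and the 8% of nuclei with the highest doublet scores were left out as an alternative. The 5 samples could not be tied to barcode suffixes, so no genotype or age was compared and no p-value computed.

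Nuclei were named where 1 of 9 marker lists scored at least 0.2 of its level in the richest nuclei, the next list at most 0.5 of that score, and at least 3 markers were present. That level was set in each matrix on its own, for adipocyte markers at 303 per 10000 UMIs in the first matrix and 166 in the aging matrix. Adipocyte-like nuclei of the 2 matrices were therefore not named at the same level. Gate and graph clusters (scanpy 1.11.5, members left out) gave the same name to 99.2% and 98.2% of nuclei named by both. Classes under 50 nuclei were not described, and of the 814 fibroblast-like nuclei of the first matrix many lay in clusters left unnamed. UMIs were summed over nuclei and given as CPM with exact Poisson intervals, and ratios with conditional binomial intervals, shares with Clopper-Pearson intervals. A gene was called at 2-fold or 0.5-fold and measured at 50 UMIs. Correlations used Pearson residuals. Other alternatives were a stricter gate, graph clusters, each suffix alone, thinning to 500 or 1000 UMIs, Ucp1 alone as the panel, a minimum of 3 UMIs and, chosen after seeing the data, nuclei without a white-like UMI. Code was run with Python 3.11.15 and tested on simulated data. Named genes were the members, the panel, the 2 highest and 2 lowest of each list, and the 5 genes most like each member, of which 1 gene is not reported here. The members and lists were chosen with earlier results of these data known. Sequences and annotation came from RefSeq (GRCm38.p6) and GENCODE M21, and no promoter was printed for Ppargc1b.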

Additional observations from a re-analysis of the deposited data

How the results depend on the processing

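Under the alternatives, 237 values of the main comparisons kept their direction and side of the limits, while 2 reversed, 6 were no longer past a limit, 3 newly passed one and 9 counts moved by over 1.5 times. Ppargc1a in adipocyte-like over other nuclei of the first matrix was 1.43-fold with graph clusters and 1.90-fold thinned to 500 UMIs, and Esrrg 1.76-fold in suffix 2 alone. Esrrb there was 1.40-fold under the stated upper limits (11 UMIs), 4.28-fold in suffix 1 alone and 0.634-fold thinned, and 1.96-fold in the aging matrix under those limits. In suffix 1 alone 3 pairs of member and class were above carried-over RNA. Esrrb over carried-over RNA in endothelial-like nuclei of the aging matrix was 0 in suffix 1. List counts in 1 suffix alone were 7 coregulators higher (suffix 2), 4 partners higher (suffix 1), 1 partner lower (suffix 2) and 0 mitochondrial DNA genes higher (suffix 2) in the first matrix, and in the aging matrix 1 coregulator lower (suffixes 1 and 3), 1 mitochondrial DNA gene lower (suffix 3) and 10 respiratory genes higher (suffix 2). Within the aging matrix, Pprc1 in suffix 3 over 1 was 2.71 thinned to 500 UMIs, Esrrg 0.489 with the stricter gate, and the Ppargc1a ratios of top to bottom group 0.588 (lipogenic, suffix 1) and 2.03 (glycolysis and hypoxia, suffix 3) thinned to 1000 UMIs. The cause was not tested. The ratio of Ppargc1a between suffixes 2 and 1 kept its side of 2-fold in each alternative run. Thinned to 1000 UMIs, the correlation of Ppargc1a with Ppargc1b in suffix 2 of the first matrix was 0.422. No paired analysis was possible because each label stands for 1 library and no result comes from a test. Depth limits Esrrb and Pprc1 most, and 1 library per label means that no difference has a replicate check.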
